A study of Mus musculus with 28 samples.

Results

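After knock-down of *Ssrp1* in mouse embryonic stem cells (mESCs), the authors tested every exon of each expressed gene for a change in its use relative to the rest of the gene and deposited the exons that passed. Exons longer than 300 bp made up 671 of the 1258 exons on that list, and they lay in 513 of its 747 genes. All of them were kept, with no further selection. Each was matched to the exon structure of its gene in the deposited gene table, and was called a gene end exon where its 3′ edge was the 3′ boundary of the gene, a gene start exon where its 5′ edge was the 5′ boundary, and an internal exon otherwise. The fold changes and p-values of the exon test are the authors' own and were not used, and no exon values per library were used, so what follows describes which exons were listed and the RNA of their genes, not the direction in which the use of an exon changed.

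SSRP1 forms the histone chaperone FACT together with SUPT16. The cells were of the E14 line, an established mESC line kept in serum with leukaemia inhibitory factor, transfected with shRNA vectors against *Ssrp1* (KD) or with control vectors and selected with puromycin. RNA values were used from 4 control and 4 KD libraries that received ERCC spike-ins, alongside 1 peak list each for SSRP1 and SUPT16 ChIP-seq of unperturbed cells and chromatin-associated RNA of 2 libraries. The control and KD RNA-seq exists as sets with and without spike-ins, and neither the labels nor the methods state which of them gave the exon list. The RNA was total RNA depleted of ribosomal RNA, and the study's methods call the 4 libraries of each condition biological replicates, without saying how the cultures were kept apart.

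Exons are usually recognised as short units between a 3′ and a 5′ splice site, and most internal exons are short. The last exon of a gene is different, because its end is not spliced: the transcript is cut downstream of a poly(A) signal, most often AATAAA or ATTAAA, and most of the exon is 3′ untranslated region (3′ UTR). Long internal exons tend to be single large blocks of coding sequence, or exons that end a shorter transcript in some cells and are skipped in others. First exons carry the transcription start site and often lie in CpG-rich DNA.

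The ends of a few listed exons show these kinds, read from the RefSeq assembly GRCm38.p6. The last 30 bases of 3 of the longest gene end exons, and of that of *Ctsa*, carried a poly(A) signal, in capitals.

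Taok1, chr11:77529162-77529191, minus strand: aactgtAATAAAagtaattttagtacacag

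Nufip2, chr11:77717937-77717966, plus strand: gtgtacattgAATAAAaaagtttaaaagtt

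Fam160a2, chr7:105371211-105371240, minus strand: taataatgtAATAAAtatcctactgccata

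Ctsa, chr2:164841003-164841032, plus strand: acttattcaaaagaATTAAAatggctctgc

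The same signal stood near the end of internal exons in which RefSeq places the end of a shorter transcript, here in *Triobp*, *Tpm1*, which encodes a tropomyosin, and *Ccnc*, which encodes cyclin C.

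Triobp, chr15:78968813-78968842, plus strand: acctgATTAAAgcaatttaacttcccttaa

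Tpm1, chr9:67023842-67023871, minus strand: agaAATAAAccgtttaaaaagtggtcagaa

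Ccnc, chr4:21747933-21747962, plus strand: agctacagaagAATAAAaacataaaaccaa

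The longest internal exons ended instead at a 5′ splice site. Below are the last 20 exon bases and the first 10 intron bases, with the GT of the splice site in capitals.

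Bsn, chr9:108109875-108109904, minus strand: aggggggactaggtagccagGTatgggcac

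Prune2, chr19:17124573-17124602, plus strand: cgacatgaaaccaccaaacgGTaagcaacc

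Map1b, chr13:99429202-99429231, minus strand: agcgaagaccgcaacggcagGTaggtgggg

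Last exons made up most of the long exons. Gene end exons numbered 385 of 671 (57.4%, 95% Wilson interval 53.6 to 61.1%), internal exons 165 (24.6%, 21.5 to 28.0%) and gene start exons 121 (18.0%, 15.3 to 21.1%). These intervals, as all that follow, cover counting error only. Among all 21647 exons longer than 300 bp in measured genes with 2 or more exons, the shares were nearly the same, at 54.8%, 28.0% and 17.1%. The listed exons of 300 bp or less lay elsewhere: 444 of 587 were internal (75.6%), 121 were gene start exons and 22 (3.75%) were gene end exons.

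**Figure D1:**
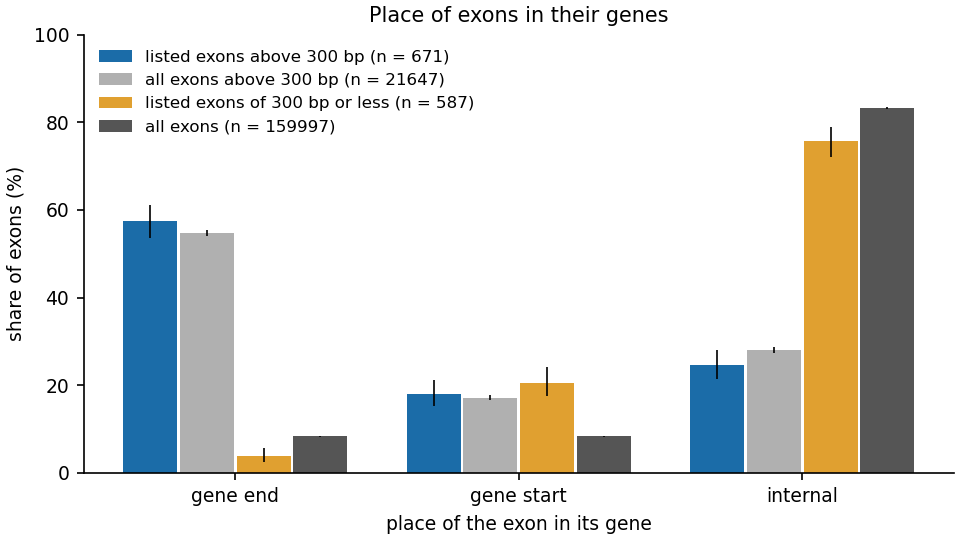
Share of exons (%, y axis) at the gene end, at the gene start or internal (x axis) among listed exons above 300 bp, all exons above 300 bp of measured genes, listed exons of 300 bp or less, and all exons, with 95% Wilson intervals. At the gene end stood 57.4% of the listed long exons and 54.8% of all long exons, against 3.75% of the listed short ones.

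Within each place, the listed exons were longer than was usual there. Gene end exons had a median length of 2009 bp (305 to 9167 bp), against 1334 bp for all gene end exons above 300 bp. The medians were 824 bp against 516 bp for internal exons and 500 bp against 441 bp for gene start exons. Of the gene end exons 77.9% exceeded 1000 bp, against 62.1% of all long gene end exons, and of the internal exons 45.5%, against 19.5%. At the length limit, 9 listed exons of 303 to 309 bp lay just inside, among them those of *Asb1* (303 bp, internal) and *Emg1* (303 bp, gene start), and 12 listed exons of 291 to 299 bp lay just outside. Whether longer exons, which collect more reads, were also easier to list was not tested.

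**Figure D2:**
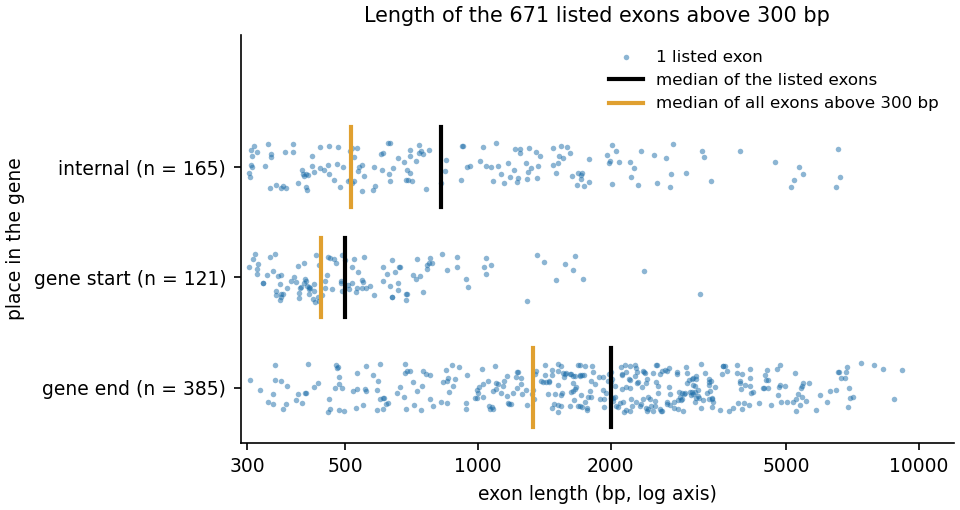
Length of each of the 671 listed exons above 300 bp (bp, log x axis) by place in the gene, 1 point per exon with vertical scatter for display only. Black lines are medians of the listed exons (2009, 500 and 824 bp for gene end, gene start and internal), and orange lines are medians of all exons above 300 bp (1334, 441 and 516 bp).

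The 3 longest gene end exons were those of *Taok1*, a protein kinase (chr11:77529162-77538328, 9167 bp, exon 20 of 20), *Fam210a* (chr18:68260184-68268952, 8769 bp) and *Nufip2*, an RNA-binding protein gene (chr11:77709683-77717966, 8284 bp). Nearly all of each was 3′ UTR, with 8705, 8535 and 8231 such bases. Of all 385 gene end exons, 372 held 3′ UTR bases in RefSeq, and the median share of 3′ UTR was 91.9%, against 85.0% in all long gene end exons. A curated RefSeq transcript ended inside 318 of them (82.6%, 78.5 to 86.1%), against 80.2% of all long gene end exons. A poly(A) signal, searched as AATAAA or ATTAAA on the exon strand in the last 40 bases, was found in 320 (83.1%, 79.1 to 86.5%), against 75.3% of all. Of the 320 with a signal, 268 also held a RefSeq transcript end, and the others, among them that of *Dido1*, did not. The exons without a RefSeq transcript end were placed at the gene end by the authors' gene model.

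Transcript ends were also common among the internal exons. RefSeq placed a transcript end inside 34 of the 165 (20.6%, 15.1 to 27.4%), against 420 of all 6067 internal exons above 300 bp (6.92%, 6.31 to 7.59%). A poly(A) signal stood in the last 40 bases of 29 (17.6%, 12.5 to 24.1%), against 6.64% of all. A GT followed the exon in 122 (73.9%, 66.8 to 80.0%), against 91.1%, and 69 (41.8%) were coding throughout, against 67.1%. The 34 exons lay in 33 genes, had a median length of 1524 bp and a median 3′ UTR share of 91.0%. A poly(A) signal stood in 26 of these 34 and in 3 of the 131 other internal exons, those of *Txnl4a*, *Stx3* and *Polr1d*. These exons were set apart after the values had been seen. The listed internal exons were longer than all internal exons above 300 bp (medians 824 and 516 bp). Length was not matched, and its part in these shares was not tested.

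Several of the 34 belong to genes known for proteins with alternative C-termini. In *Syncrip*, which encodes an hnRNP protein, the exon was exon 11 of 12 (chr9:88455582-88456729, 1148 bp), and in *Tpm1* exon 14 of 15 (chr9:67023842-67024565, 724 bp). *Ppm1b*, a protein phosphatase gene, held adjacent exons of this kind, exons 8 and 9 of 11 (1211 and 1720 bp). The longest was exon 9 of 10 of *Aebp2*, which encodes a partner of Polycomb repressive complex 2 (chr6:140650756-140655481, 4726 bp), and the shortest exon 21 of 22 of *Ttk*, a mitotic kinase gene (311 bp). In 17 of the 34 cases the gene end exon of the same gene was also long and listed.

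**Figure D3:**
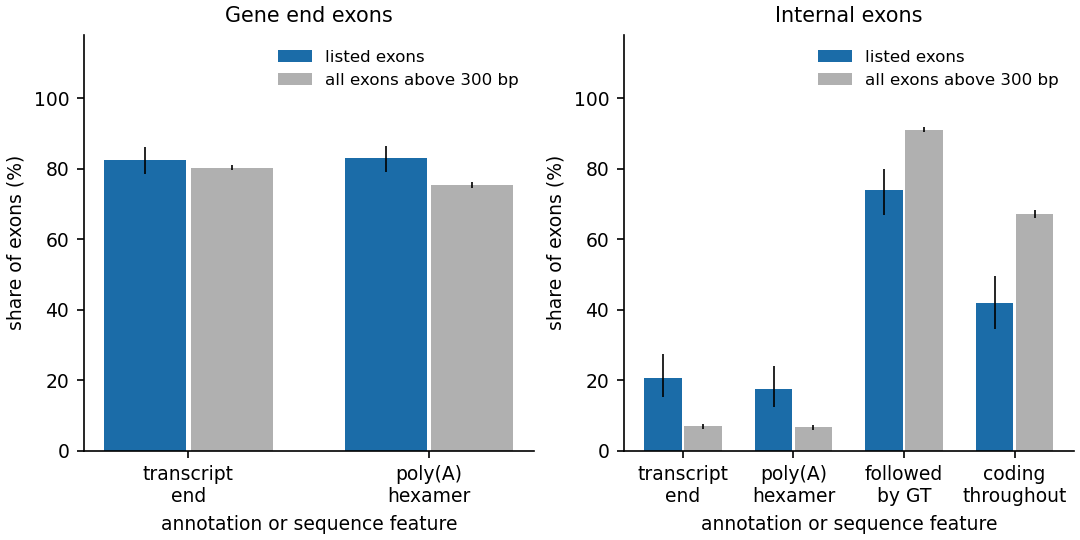
Share of exons (%, y axis) with an annotation or sequence feature (x axis), for listed exons and all exons above 300 bp, at the gene end (left) and internal (right), with 95% Wilson intervals. A transcript end lay in 20.6% of the listed internal exons against 6.92% of all, and 73.9% against 91.1% were followed by GT.

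An exact match in RefSeq with splicing on both sides was found for 103 of 165 (62.4%), against 84.6% of all long internal exons. The longest were exon 5 of 12 of *Bsn*, which encodes the presynaptic scaffold bassoon (chr9:108109885-108116526, 6642 bp), exon 8 of 20 of *Prune2* (chr19:17118043-17124592, 6550 bp) and exon 5 of 7 of *Map1b*, which encodes a microtubule-associated protein (chr13:99429212-99435701, 6490 bp), and all 3 were coding throughout. Of the 69 exons that were coding throughout and spliced on both sides, 35 had a length divisible by 3, so that skipping would keep the reading frame (50.7%, 39.2 to 62.2%). The share among all such exons was 42.9%, inside that interval.

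Gene start exons were few and GC-rich, with a median GC content of 65.4% against 66.8% for all long gene start exons, while listed gene end exons had 44.4% against 46.8%. A RefSeq transcript began inside 103 of the 121 (85.1%). The longest were those of *Tsc22d1*, a transcription factor gene (chr14:76415821-76419009, 3189 bp), *Gas5*, a non-coding host gene of small nucleolar RNAs (chr1:161035166-161037547, 2382 bp), and *Adcy9*, an adenylyl cyclase gene (chr16:4417853-4419587, 1735 bp). In RefSeq only 327 of the 2382 bases of the *Gas5* exon lie in exons of its curated transcripts, and introns of these transcripts lie within it. It is thus an exon of the authors' gene model. The *Adcy9* exon holds no RefSeq transcript start. A further 15 internal exons also held a transcript start (9.09%, 5.59 to 14.5%), against 5.51% of all long internal exons.

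In 373 of the 513 genes the long exons stood in 1 place, in 137 in 2 and in 3 genes in all 3 places. The commonest pairing was a gene end with an internal exon (73 genes), followed by a gene end with a gene start exon (54 genes). The most was 5 long exons, in *Igsf3*, which encodes an immunoglobulin superfamily protein, all but the gene end exon internal. *Dido1* held 4, among them exon 7 of 17 (2970 bp), with 2490 3′ UTR bases, and the gene end exon (4620 bp), with 3245 coding bases. *Gcnt2*, which encodes the enzyme that branches the I blood group antigen, held 3 that each began a RefSeq transcript, of 1506, 1528 and 1168 bp, and each carried 919 coding bases. *Mtus1*, *Zfp276*, *Stac2*, *Tns3* and *Stx3*, a syntaxin gene, held 3 each. A listed exon of 300 bp or less was also present in 178 of the 513 genes.

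The RNA of the genes was then compared between control and KD libraries. A gene value sums all exons of the gene, the listed ones included. Values are reads per gene scaled to library size by the authors, on which 1 read was worth 0.0580 to 0.179. Reads on the 15384 genes numbered 4602278 to 6680919 in controls and 9433193 to 19856032 in KD. Depth thus differed between the conditions, and its part in the results was not tested. The scaling to library size did not make the summed values equal, which were higher in every KD library than in any control. In control 1 a read was worth 0.136 with 6680919 reads, and in KD 1 0.124 with 9433193. Scaling again by TMM moved the median log2 fold change of all genes from -0.035 to -0.048. The part of the unequal sums in the results was not tested. *Ssrp1* itself stood at 261, 230, 223 and 226 in the controls and at 24.1, 26.4, 24.9 and 28.9 in KD (log2 fold change -3.15, SE 0.07). In limma on log2(value + 0.5) over 15384 genes, with calls where the log2 fold change passed 1 in either direction and the Benjamini-Hochberg adjusted p was under 0.01, 1242 genes were higher in KD (8.07%) and 3163 lower (20.6%).

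All 513 genes with a long exon were measured, of which 94 were called higher (18.3%, 15.2 to 21.9%) and 61 lower (11.9%, 9.37 to 15.0%). The others were not called. The median log2 fold change was 0.18, against -0.03 over all genes. The 234 genes whose listed exons were all of 300 bp or less leaned further the same way. Of these 66 were called higher (28.2%) and 13 lower (5.56%), with a median of 0.45 and a median control value of 74.1. The 513 genes were also higher at the start than all genes, with a median control value of 51.6 against 22.2. With all genes ranked by control level and cut into 4 equal bins, 21 of the 513 lay in the lowest bin, in which 38.2% of all genes were called lower, and 250 in the highest, where 17.2% of them and 11.6% of all genes were called higher and 10.0% and 4.26% lower. In that highest bin the median log2 fold change of the genes with a long exon, 0.12, lay below that of all genes, 0.34, opposite to the order over all levels. Quantile normalisation turned the median to -0.037 (all genes 0.05), with 44 called higher and 75 lower, so the direction depended on the scaling. Over all genes it gave 1518 higher and 1656 lower. Scaling to spike-ins moved the median of all genes to 0.95 and that of the 513 to 1.17, with 289 called higher and 8 lower.

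By place of the long exon, 80 of the 385 genes with a long gene end exon were called higher (20.8%) and 39 lower (10.1%), with a median log2 fold change of 0.27. Of the 121 with a long gene start exon it was 20 and 20 (16.5% each, median -0.14). Of the 150 with a long internal exon 13 were higher (8.67%) and 31 lower (20.7%), near the shares over all genes of 8.07% and 20.6% (median -0.28). The order gene end, gene start, internal of the medians held with quantile normalisation (0.06, -0.24 and -0.42) and with spike-ins (1.28, 0.87 and 0.72), but with quantile normalisation 40 genes with a gene end exon were called higher and 44 lower. Genes with an internal exon spliced on both sides stood lowest, with 6 of 95 called higher and 27 lower (median -0.52), while the 33 genes with an internal exon holding a transcript end had 3 higher and 1 lower (median 0.29). The summed exon length of these sets differed as well, with medians of 6227 bp and 4809 bp, against 4127 bp for genes with a gene end exon and 2802 bp for all genes, and its part in the result was not tested. Genes counted in several places share their values, and no test between the places was made.

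The largest rise was that of *Pdk1*, the pyruvate dehydrogenase kinase gene, whose listed exon is its gene end (chr2:71899984-71903858, 3875 bp). It stood at 37.8, 37.7, 27.1 and 26.9 in the controls and at 340, 331, 327 and 317 in KD (log2 fold change 3.34, SE 0.09, limma adjusted p = 1.08e-21). All KD libraries lay far above all controls. *Idi1*, of isoprenoid synthesis, rose from 28.5 ± 3.37 to 104 ± 3.92 (SD, n = 4 each; 1.86, SE 0.08), and *Pdzd4* from 23.5 ± 1.50 to 80.9 ± 3.44 (1.76, SE 0.07). Both held a long exon at each end of the gene.

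The largest falls were in genes of the matrix, the cytoskeleton and axon growth. *Vcan*, which encodes the proteoglycan versican, stood at 206, 156, 131 and 184 in the controls and at 17.3, 17.7, 20.1 and 18.7 in KD (log2 fold change -3.15, SE 0.10, limma adjusted p = 2.94e-20). Its listed exon is internal, exon 8 of 15 (chr13:89688285-89693501, 5217 bp), and coding throughout. *Nav2*, a neuron navigator gene, fell from 55.4 ± 2.84 to 8.84 ± 0.960 (SD, n = 4 each; -2.58, SE 0.10), and *Flnc*, the filamin C gene, from 205 ± 28.8 to 34.5 ± 2.51 (-2.55, SE 0.08). *Bsn* followed, at 19.6, 33.6, 35.9 and 23.0 against 4.20, 5.10, 4.92 and 4.23 (-2.44, SE 0.16). The groups did not overlap in any of the 4, which were named for the size of their falls. The share of all genes without overlap is not given here. By the adjusted p alone 5447 of all 15384 genes were higher and 5745 lower.

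Several genes with many or very long exons were not called. *Taok1* stood at 188 ± 10.0 and 226 ± 6.41 (SD, n = 4 each; log2 fold change 0.27), *Prune2* at 44.1 ± 5.83 and 40.4 ± 2.14 (-0.12, groups overlapping), *Map1b* at 79.1 ± 3.57 and 61.0 ± 3.82 (-0.37), and none passed the threshold. Nor did *Igsf3* (57.9 ± 2.55 and 41.3 ± 2.32, -0.48), *Dido1* (192 ± 5.72 and 346 ± 7.32, 0.84), *Mtus1* (-0.73), *Stx3* (-0.69), *Zfp276* (-0.40), *Gcnt2* (0.40) or *Tns3* (-0.13). *Stac2* was called lower at -1.07, but missed the fold threshold without control replicate 2 (-0.99) or KD replicate 3 (-0.95). Of the genes with an internal transcript end, *Syncrip* (0.99) lay just under the threshold, and passed it without control replicate 1 (1.03), control replicate 4 (1.01) or KD replicate 4 (1.01). *Myef2* (1.24) and *Ppp2r1b* (1.13) were called higher, but not with quantile normalisation (0.85 and 0.82), and *Lrrfip1* was called lower (-1.19), while *Ccnc* (0.66), *Triobp* (-0.53) and *Tpm1* (-0.06) were not called.

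**Figure D4:**
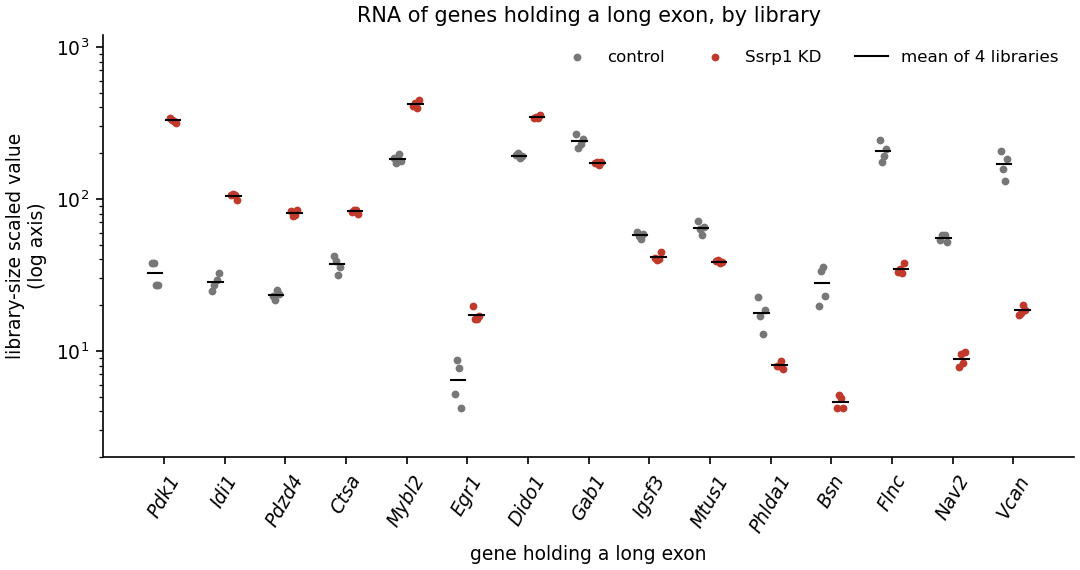
Library-size scaled values (log y axis) of 15 genes that hold a long exon (x axis) in the 4 control (grey) and 4 *Ssrp1* KD (red) libraries, with the mean as a black line. *Pdk1* lies highest above its controls, and *Bsn*, *Flnc*, *Nav2* and *Vcan* lie below theirs with no overlap.

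The genes were also sorted by what their proteins do, into lists drawn up from the listed genes themselves, which therefore give no independent support. Of 13 genes of translation and ribosomal proteins 8 were called higher in limma, among them *Rpl15* (1.42) and *Mrps24* (1.53), while *Eif5*, a translation initiation factor gene, stood at 242 ± 7.45 in controls and 243 ± 6.19 in KD (SD, n = 4 each). With quantile normalisation 1 of the 13 was called higher. Chromatin and transcription cofactors had 11 of 31 higher, led by the histone chaperone gene *Anp32e* (1.58) and including *Set*, *Nap1l1* and *Dnmt3a*, and 2 lower, of which *Setd1b*, a histone H3K4 methyltransferase gene, fell by 1.81 on the log2 scale. Quantile normalisation gave 2 higher and 5 lower.

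RNA processing and decay had 5 of 26 higher, *Dnajc8* (1.60), *Hnrnpa1*, *Hnrnpc*, *Dcp2* and *Cnot7*, with *Rnpc3*, of the minor spliceosome, lowest (-0.57), and 1 higher with quantile normalisation. Ubiquitin ligases and conjugating enzymes had 3 of 16 higher, with *Rnf138* at 1.59 and *Ube3b* lowest at -0.77, and with quantile normalisation 1 higher and 2 lower. Sequence-specific transcription factors had 6 of 24 higher, with *Egr1* at 1.40, and 5 lower, with *Cux2* at -2.32, and with quantile normalisation 1 higher and 4 lower. Protein kinases and phosphatases had 3 of 32 higher and 6 lower, *Csnk1g1* being lowest (-1.61), and cytoskeleton and adhesion had 2 of 31 higher (*Mapt*, 1.54, and *Prx*) and 6 lower (*Flnc*, *Plec*, *Utrn*, *Ahnak*, *Pkp3* and *Itgae*). The shares in these last lists, 9.38% and 18.8% for kinases and phosphatases and 6.45% and 19.4% for cytoskeleton and adhesion, were near the 8.07% higher and 20.6% lower over all genes. The list medians ran from 1.10 for translation to -0.30 for cytoskeleton and adhesion, against -0.03 over all genes. Set against the median of all genes, translation stayed above it and cytoskeleton and adhesion below it under every scaling tried. With quantile normalisation the medians of RNA processing, transcription factors, kinases and ubiquitin enzymes turned to lie under it.

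Factors that choose exon and transcript ends were described from lists of whole pathways. Of 21 genes of the cleavage and polyadenylation machinery 0 were called in limma, with a range from *Pabpc1* (-0.59) to *Pabpn1* (0.87). At an unadjusted p below 0.05 alone 15 of them were higher (71.4%) and 3 lower (14.3%), against 39.0% and 41.5% of all genes, and with quantile normalisation 8 (38.1%) and 6 (28.6%), against 39.7% and 34.5%. Of 6 genes of the U1 snRNP and LUC7-like factors, which recognise the 5′ splice site and shield transcripts from early polyadenylation, *Snrnp70* was called higher (1.04, and 0.58 with quantile normalisation) and *Luc7l3* was lowest (0.22, and -0.15 with quantile normalisation). Of 25 exon choice regulators other than SR proteins, the 2 called were lower, *Celf2* (-2.81) and *Ptbp2* (-1.12), and *Hnrnpl* was highest at 0.82.

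Markers of the cells were read in the same fit. Of 10 pluripotency markers 7 were called higher, or 2 with quantile normalisation, and their summed value lay at 1873 to 1988 in controls and 5065 to 5511 in KD. Of the markers of fibroblasts, primitive endoderm and trophectoderm, 4 of 5, 4 of 6 and 2 of 5 were called lower (3, 2 and 1 with quantile normalisation, and in limma on spike-in values 3, 1 and 0, where 1 trophectoderm marker was lower at an unadjusted p below 0.05), with summed values of 50.0 to 63.7, 65.9 to 95.6 and 407 to 520 in controls against 13.1 to 14.9, 27.3 to 32.0 and 270 to 280 in KD. Over all genes 8.07% were called higher and 20.6% lower, and in the lowest bin of control level 38.2% were called lower. With quantile normalisation 9.87% of all genes were called higher and 10.8% lower, and on spike-in values 7.03% lower. The markers were not set against genes of their own level. Of 4 neural progenitor markers *Tubb3* was higher and *Pax6* lower (sums 75.7 to 99.0 and 141 to 152). In bulk RNA, fewer cells of a type and less RNA per cell cannot be told apart, and the part of such cells in the exon list was not tested.

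Binding of FACT was described from the peak lists, which the authors called on 2 ChIP replicates of each subunit together, so that neither heights nor replicate values could be compared. An SSRP1 peak overlapped 78 of the 671 long exons by at least 1 bp (11.6%, 9.41 to 14.3%), against 7.08% of all long exons, and a SUPT16 peak 41 (6.11%, 4.54 to 8.18%), against 3.73%. The share was largest for gene start exons, of which 41 of 121 lay under SSRP1 peaks (33.9%, 26.1 to 42.7%), against 23.4% of all long gene start exons, and 27 under SUPT16 peaks (22.3%, 15.8 to 30.5%), against 15.0%. For gene end exons it was 25 of 385 (6.49%, 4.44 to 9.41%), against 3.70%, and for internal exons 12 of 165 (7.27%, 4.21 to 12.3%), against 3.74%. The listed exons were longer and their genes more highly expressed than those they are set beside, and the part of either in these shares was not tested. Overlap was not particular to the long exons of the list. Of its exons of 300 bp or less, 83 of 587 lay under SSRP1 peaks (14.1%) and 42 under SUPT16 peaks (7.16%). Among its gene start exons of 300 bp or less the SSRP1 share was 36.4%.

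**Figure D5:**
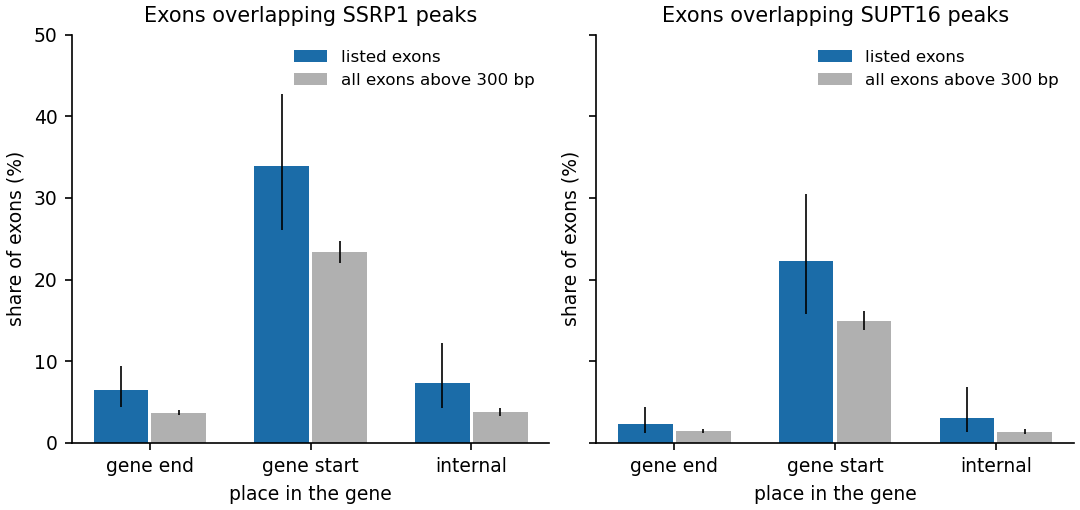
Share of exons (%, y axis) that overlap an SSRP1 (left) or SUPT16 (right) peak by at least 1 bp, by place in the gene (x axis), for listed exons and all exons above 300 bp, with 95% Wilson intervals. For SSRP1 the shares are 33.9% against 23.4% at gene starts, 6.49% against 3.70% at gene ends and 7.27% against 3.74% for internal exons.

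SSRP1 peaks covered 20 of the listed long exons over their whole length (2.98%, against 1.60% of all long exons). Among them were the gene start exons of *Gas5* and of *Gab1*, a signalling adaptor gene (chr8:80879532-80880479, 948 bp), and gene end exons of *Egr1*, an immediate early gene (chr18:34862465-34864956, 2492 bp), *G530011O06Rik*, a non-coding gene (1748 bp), and *Mybl2*, a cell cycle transcription factor gene (chr2:163083166-163084687, 1522 bp). Both exons of *Egr1* were listed and covered. Gene end exons under an SSRP1 peak began within 5000 bp of the gene start in 6 of 25 cases (24.0%, 11.5 to 43.4%). The share among all long gene end exons under SSRP1 peaks was 29.8%, inside that interval. *Phlda1* had 883 of 1363 bp of its gene start exon covered, *Zfp865* 1374 of 3217 bp of an internal exon, *Chd9*, a chromatin remodeller gene, 883 of 1614 bp and *Dlgap4* 616 of 824 bp. The internal exons of *Chd9* and *Dlgap4* hold a RefSeq transcript start.

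For the gene starts of *Gas5* and *Gab1*, which lay wholly under SSRP1 peaks, the 250 bases before the RefSeq start are shown from GRCm38.p6 with each CG in capitals. They hold 17 and 25 CG, against a median of 6 in the 32851 RefSeq promoters of that length, of which 92.1% hold a CG, 23.5% hold at least 17 and 10.7% at least 25.

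Gas5, chr1:161034916-161035165, plus strand: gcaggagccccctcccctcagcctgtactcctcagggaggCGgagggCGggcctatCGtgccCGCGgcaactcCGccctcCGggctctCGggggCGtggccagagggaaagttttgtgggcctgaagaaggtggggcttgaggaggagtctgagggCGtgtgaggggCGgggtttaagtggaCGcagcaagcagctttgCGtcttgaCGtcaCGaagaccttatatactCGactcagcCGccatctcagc

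Gab1, chr8:80880480-80880729, minus strand: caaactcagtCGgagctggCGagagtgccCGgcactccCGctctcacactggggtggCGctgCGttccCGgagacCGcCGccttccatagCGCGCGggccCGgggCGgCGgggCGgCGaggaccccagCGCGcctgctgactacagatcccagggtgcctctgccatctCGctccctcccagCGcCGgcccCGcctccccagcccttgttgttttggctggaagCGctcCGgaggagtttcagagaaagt

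The RNA of these genes was called in both directions. *Egr1* stood at 5.17, 8.78, 7.71 and 4.24 in the controls and between 16.2 and 19.9 in the 4 KD libraries (log2 fold change 1.40, SE 0.17, limma adjusted p = 2.05e-08), and *Mybl2* rose from 183 ± 10.4 to 419 ± 20.8 (SD, n = 4 each; 1.20, and 0.62 and not called with quantile normalisation). *G530011O06Rik* fell from 36.7 ± 4.52 to 16.1 ± 2.41 (-1.17) and *Dlgap4* from 39.1 ± 3.81 to 18.6 ± 0.471 (-1.05), a call that was lost with a pseudocount of 2 (-0.99). *Phlda1* fell from 17.7 ± 3.95 to 8.02 ± 0.412 (-1.07), though its call was lost without control replicate 1 (-0.95). *Gas5* (0.38), *Gab1* (-0.47), *Chd9* (-0.18) and *Zfp865* (-0.32) were not called. Of all 72 genes with a long exon under an SSRP1 peak, 14 were called higher (19.4%) and 9 lower (12.5%, median 0.15). These shares were near those of all 513 genes, the 72 included, at 94 higher (18.3%) and 61 lower (11.9%). Over all genes 8.07% were called higher and 20.6% lower. A difference between these sets was not tested.

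Of the remaining genes named for their place in the study, *Ctsa*, the cathepsin A gene, stood at 42.2, 38.9, 31.6 and 35.6 in the controls and at 81.7, 84.2, 84.5 and 80.0 in KD (1.15, SE 0.08, limma adjusted p = 1.83e-13), and the groups did not overlap. With quantile normalisation it was not called (0.91). Its gene end exon (chr2:164839151-164841032, 1882 bp) overlaps an exon of another gene on the opposite strand, as 36 of the 671 exons do, and no source states whether the counting used the strand, so such values are uncertain. *Chd2*, a chromatin remodeller gene, was not called (-0.47).

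In the chromatin-associated RNA of unperturbed mESCs, with total counts of 3441643 and 3393923, 96.9% and 98.6% of the 513 genes had at least 1 read, against 83.0% and 88.0% of all genes. Their median was 0.850 and 1.50 CPM per kb (library-scaled counts per kb of summed exon length) in the 2 libraries, against 0.500 and 0.877 for all genes. *Gas5* took 430505 and 426019 counts, 12.5% and 12.6% of each library, and 2 genes had more in each. These libraries are of 1 group, so no conditions were compared.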

How the data were processed

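Total RNA of control and *Ssrp1* KD mESCs, chromatin-associated RNA and FACT ChIP-seq were used. Per the study's methods the RNA was depleted of ribosomal RNA and made into libraries with a directional kit. The authors aligned RNA-seq reads to mm10 with STAR (2.5.1b per the labels), counted genes with featureCounts and deposited values scaled by library size or by spike-ins (a signal, not CPM). Chromatin RNA was deposited by the authors as raw counts per gene (STAR 2.4.1b). ChIP-seq reads were aligned with Bowtie2 2.2.6, and peaks were called by the authors on 2 replicates together. Columns of the authors' own comparisons (fold changes, statistics and p-values of exons and genes) were not used.

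Exons were matched to RefSeq annotation and sequence of GRCm38.p6. Place, length and sequence features were counted with Wilson 95% intervals. Library-size values were tested with limma 3.58.1 (R 4.3.3, trend) on log2(value + 0.5) over all 15384 genes, 4 against 4 libraries, without covariates, with Benjamini-Hochberg adjustment. Fold changes on this scale understate the change of low genes. The values were whole multiples of 1 read within 0.1 read for 100% of values, and the depths given were derived from them. On simulated data of 15384 genes, 100% of 200 genes changed by a log2 fold of 2 in either direction were recovered, with 0 false calls. The fold lay above the call threshold of 1 and low genes were left unchanged. Smaller changes and a shift of all genes were not simulated.

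The members and lists were chosen with earlier results of these data known. Named were the 3 longest exons of each place, genes with 3 or more long exons, the 3 largest rises and 3 largest falls, the 3 exons of each place with most bases under SSRP1 peaks, genes the study names, and the highest, lowest and called members of each list. Internal exons with a transcript end, and other examples, were named after their values were seen. Alternatives were other pseudocounts, filters, scalings, thresholds, a replicate block, leaving out each library, other edges, lengths, overlaps and windows. Results for some genes are not reported here.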

Additional observations from a re-analysis of the deposited data

Results flagged for a closer look

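Within the 4 KD libraries, 1 library stood apart from the other three for 3 genes. *Idi1* was lowest at 98.6 in replicate 4, with the others between 105.9 and 107.1. *Stx3* was lowest at 28.5 in replicate 4, with the others between 31.5 and 31.9. *Cux2* was highest at 4.75 in replicate 4, with the others between 3.34 and 3.43. In all, 128 groups of 4 libraries were examined, and chance sets apart about 1 in 20.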

How the results depend on the processing

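Counts of the 513 genes moved with the scaling and the threshold. Spike-in scaling gave 289 higher and 8 lower with a median of 1.17, where all genes had 0.95, and quantile normalisation 44 higher and 75 lower with a median of -0.037. The adjusted p alone called 242 higher and 181 lower. Leaving out 1 library gave 94 to 103 higher, 59 to 63 lower and medians of 0.16 to 0.19. Other pseudocounts, the value filter and TMM scaling kept 87 to 97 higher and 56 to 62 lower. Same-numbered libraries did not deviate together (correlations -0.06 to 0.02), which cannot show whether they were prepared in pairs. The replicate block gave 94 higher, 61 lower and a median of 0.18. In this balanced design a block leaves every fold change the same by construction, so the unchanged median is no check. Count tests with edgeR or DESeq2 on recovered reads were not run.

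Above 500 bp 60 gene start exons remained, and above 1000 bp 14 gene start and 75 internal exons. An overlap of at least 50% of the exon left 44 exons under SSRP1 and 20 under SUPT16 peaks, and peaks of at least 500 bp 50 and 17.

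Spike-in scaling reversed *Map1b* (0.64), *Prune2* (0.90), *Adcy9* (0.45), *Gab1* (0.55), *Zfp865* (0.67), *Chd9* (0.84), *Igsf3* (0.53), *Mtus1* (0.29), *Zfp276* (0.60), *Tns3* (0.89), *Stx3* (0.32), *Chd2* (0.55), *Triobp* (0.49), *Tpm1* (0.96), *Rnpc3* (0.45), *Ube3b* (0.25) and *Pabpc1* (0.44), all but *Tpm1* below the shift of all genes. With spike-ins 8 named falls were no longer called: *Phlda1* (-0.08), *Dlgap4* (-0.04), *G530011O06Rik* (-0.16), *Stac2* (-0.08), *Lrrfip1* (-0.17), *Setd1b* (-0.83), *Csnk1g1* (-0.60) and *Ptbp2* (-0.11). A call was gained by 13 other named genes. Quantile normalisation reversed *Taok1* (-0.24), *Tsc22d1* (-0.36), *Eif5* (-0.55) and *Luc7l3* (-0.15). It took *Mybl2* (0.62), *Ctsa* (0.91), *Myef2* (0.85), *Ppp2r1b* (0.82), *Snrnp70* (0.58), *Phlda1* (-0.64) and *Stac2* (-0.70) inside the fold threshold. *Eif5* was -0.011 with TMM scaling and -0.010 to 0.021 with 1 library left out, and *Tpm1* -0.13 to 0.037. The cause of these moves was not tested. Exon values per library were not used, and depth behind the peaks is unknown.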
